A study of Mus musculus with 6 samples.

Results

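The miR-290 and miR-302 families are the miRNAs best known from mouse embryonic stem cells, and 9 assays for their main strands were on the PCR arrays that profiled aortas of Apoe-deficient mice. The assays were chosen by exact name, without strands marked by an asterisk, and were mmu-miR-291a-3p, mmu-miR-293, mmu-miR-294 and mmu-miR-295 from the miR-290 cluster and mmu-miR-302a, mmu-miR-302b, mmu-miR-302c, mmu-miR-302d and mmu-miR-367 from the miR-302 cluster. The species prefix is left off from here on. They made up 9 of the 596 mouse miRNA assays, and all 9 were on array card A, as inferred from the assay numbers. Aortas of 3 EC-Dicerflox mice (VE-Cadherin-CreERT2, Dicer1flox/flox, Apoe-/-) and 3 EC-DicerWT littermates (VE-Cadherin-CreERT2, Dicer1WT/WT, Apoe-/-) were measured, 1 sample per mouse. All were females that started the diet at 6 to 8 weeks of age, 1 week after tamoxifen (2 mg per 20 g body weight on 5 days), and all spent 12 weeks on high-fat food that held 19.5% casein, 0.15% cholesterol and 21% fat. Both groups therefore carried the Cre transgene, lacked Apoe and received tamoxifen, and they differed in the floxed Dicer1 alleles. The VE-Cadherin promoter directs the tamoxifen-activated Cre to endothelial cells, so the deletion of Dicer, which processes hairpin precursors into mature miRNAs, was directed at that cell type, while RNA was taken from the whole aorta.

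Each cluster is transcribed as 1 long precursor from which several hairpins are cut. In embryonic stem cells these miRNAs speed passage from the G1 phase into DNA replication and restrain inhibitors of the cell cycle, and they are switched off as cells differentiate. Adult arteries are therefore a tissue in which they are thought to be silent, and the question was in which of the 6 aortas a signal was found at all. In the RefSeq annotation of GRCm38.p6 the miR-290 cluster lies at chr7:3218626-3220841 on the plus strand, and overlaps the annotated lncRNA gene D7Ertd143e and the protein-coding gene Nlrp12. The miR-302 cluster lies at chr3:127545228-127545807 on the plus strand, and overlaps Larp7, a gene for a protein that binds the small nuclear RNA 7SK, and the lncRNA gene Gm51018.

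Mature sequences of 8 of the 9 members were found in RefSeq (GRCm38.p6), and miR-302a was the member without one. They are shown because the seed, bases 2 to 8, decides which mRNAs a miRNA pairs with and sorts the members into groups. The seed is in capitals.
miR-291a-3p: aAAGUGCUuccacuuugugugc
miR-294: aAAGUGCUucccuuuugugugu
miR-295: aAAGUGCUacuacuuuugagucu
miR-302b: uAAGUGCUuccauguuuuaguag
miR-302d: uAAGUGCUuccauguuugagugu
miR-302c: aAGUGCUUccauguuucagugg
miR-293: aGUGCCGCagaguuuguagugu
miR-367: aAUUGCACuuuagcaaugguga
The seed AAGUGCU was shared by 5 members from both clusters. In the RefSeq record miR-302c starts 1 base later, which moves its seed to AGUGCUU. MiR-293 and miR-367 had seeds that no other member shares. Position by position, miR-302b and miR-302d matched at 20 of 23 bases and miR-291a-3p and miR-294 at 19 of 22. By the same count, which allows no gaps, miR-295 matched miR-302d at 17 of 23 bases and its cluster neighbour miR-294 at 12 of 22. A base gained or lost after the seed lowers such a count. It therefore does not rank likeness within and between the clusters.

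Each value is a raw cycle threshold (Ct), which counts PCR cycles until fluorescence passes a fixed level. A higher Ct means less RNA, and wells without detection were entered as 40. Markers of the aortic wall were detected in all 6 aortas. The smooth muscle miRNAs miR-143, miR-145 and miR-133a had mean Ct values between 14.7 and 18.6, and the endothelial miR-126-3p had a mean of 17.5. Markers of other cells were present too, with mean Ct values of 19.5 to 26.3 for 4 leukocyte miRNAs and 20.1 for erythroid miR-451. Those of striated muscle and neurons were mixed. For striated muscle the mean Ct was 22.0 for miR-1, but 31.6 for miR-208 and 39.3 for miR-499, which was detected in 1 aorta. For neurons it was 23.9 for miR-9, but 36.0 for miR-124, which was detected in 5 aortas. The third replicates of both groups stood apart from the other samples, since in 22 assays each of them was over 2 cycles away from all 4 other samples on the same side. None of the 9 members was among these 22 of the 596 mouse assays. That share is so small that the absence of members is not a result about them. Other pairs of samples had 0 to 9 such assays, with 0 or 1 members among them. An assay of a plant miRNA, which mice lack, was run on both cards as a negative control and had a Ct under 40 in 1 of 12 wells, at 39.8.

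The embryonic miRNAs were mostly, but not wholly, undetected in the aorta. Of the 54 wells of the 9 members, 19 had a Ct under 40, or 35.2%, against 74.0% of the wells of the other 587 mouse assays. MiR-302a was the 1 member detected in all 6 aortas (11.1% of the members), while 76.1% of the other 326 assays on card A were detected in all 6. MiR-291a-3p, miR-302c and miR-367 were detected in none (33.3% of the members, against 11.0% of the other assays on card A). The 5 remaining members, miR-293, miR-294, miR-295, miR-302b and miR-302d, had a Ct in some aortas and not in others, an in-between state that was found in 12.9% of the other assays on card A. The detected wells were spread evenly over the groups, with 10 of 27 in EC-Dicerflox and 9 of 27 in EC-DicerWT aortas. No test was made of these shares, since the members were chosen with earlier results of these data known. With replicates 1 and 2 alone 33.3% of the member wells were detected. With a limit of Ct 35 in all samples it was 22.2%, against 69.1% of the wells of the other 587 assays. At that limit 0 members were detected in all 6 aortas, against 62.5% of the other 587 assays.

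**Figure D1:**
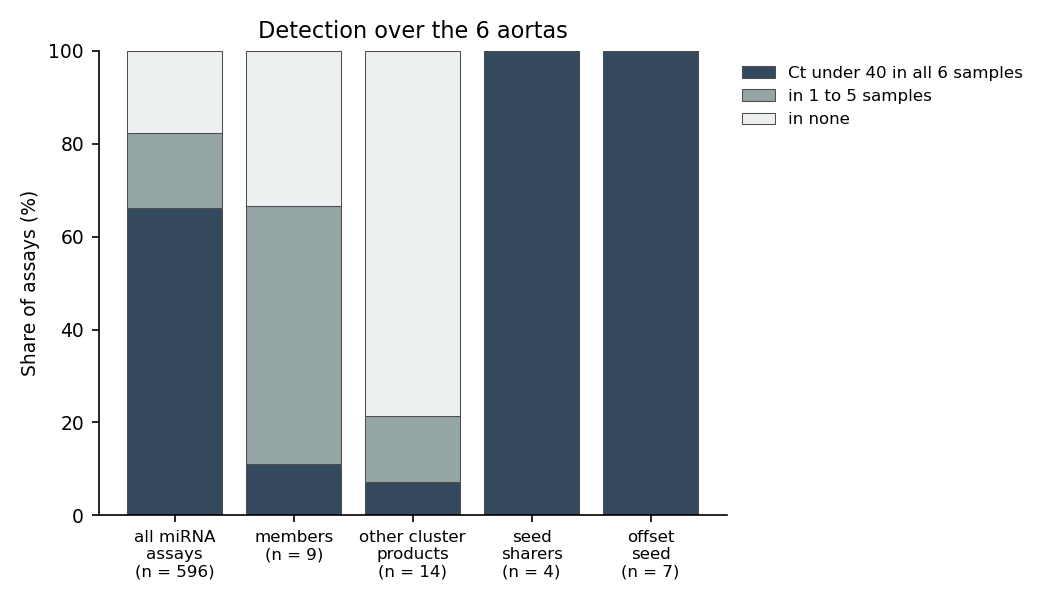
Share of assays (%) with a Ct under 40 in all 6 aortas, in 1 to 5, or in none, for all mouse miRNA assays, the 9 members, 14 other products of the same clusters, 4 miRNAs with a member's seed and 7 with an offset seed. Only 11.1% of the members were detected in all 6 aortas, whereas every assay of both seed lists was.

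MiR-302a, which in embryonic stem cells is made together with miR-302b, miR-302c, miR-302d and miR-367, gave the earliest signals. Its Ct was 37.3, 25.1 and 26.9 in EC-Dicerflox replicates 1, 2 and 3 and 33.4, 36.4 and 31.3 in EC-DicerWT replicates 1, 2 and 3. EC-Dicerflox replicates 2 and 3 were the high samples, EC-Dicerflox replicate 1 was the lowest of all 6, and the groups overlapped. The range of 12.2 cycles between aortas was exceeded by 4 of the 394 assays detected in all aortas, whose median range was 1.56 cycles. The other miR-302 cluster members did not move with it. MiR-302b had a Ct in 1 aorta, EC-DicerWT replicate 3 (34.7). MiR-302d had a Ct in EC-Dicerflox replicates 1 (36.0) and 3 (38.7), the first of which was the aorta with the latest miR-302a signal. MiR-302c and miR-367 were at 40 in all 6 aortas, also in EC-Dicerflox replicate 2, where miR-302a crossed the level at cycle 25.1. The passenger strand miR-302a*, cut from the same hairpin as miR-302a, was at 40 in all 6 aortas as well.

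Among the miR-290 cluster members, miR-294 and miR-295 were the ones detected in over 1 aorta. Both share the seed of miR-291a-3p and are abundant in embryonic stem cells. MiR-294 had a Ct of 36.5, 34.5 and 33.4 in EC-Dicerflox replicates 1 to 3 and of 34.5 and 38.6 in EC-DicerWT replicates 1 and 2, and it was not detected in EC-DicerWT replicate 3. All of these signals were late, and the groups overlapped. MiR-295 had a Ct of 36.6 and 30.9 in EC-Dicerflox replicates 1 and 3 and of 31.0 and 29.6 in EC-DicerWT replicates 2 and 3. It was at 40 in EC-Dicerflox replicate 2 and EC-DicerWT replicate 1, so each group had 1 aorta without a signal. In EC-Dicerflox replicate 2 and EC-DicerWT replicate 1, the aortas without miR-295, miR-294 was detected, and in EC-DicerWT replicate 3, the aorta with the earliest miR-295, miR-294 was not. MiR-293 was detected in EC-DicerWT replicate 2 alone, at 31.6, and miR-291a-3p in no aorta.

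**Figure D2:**
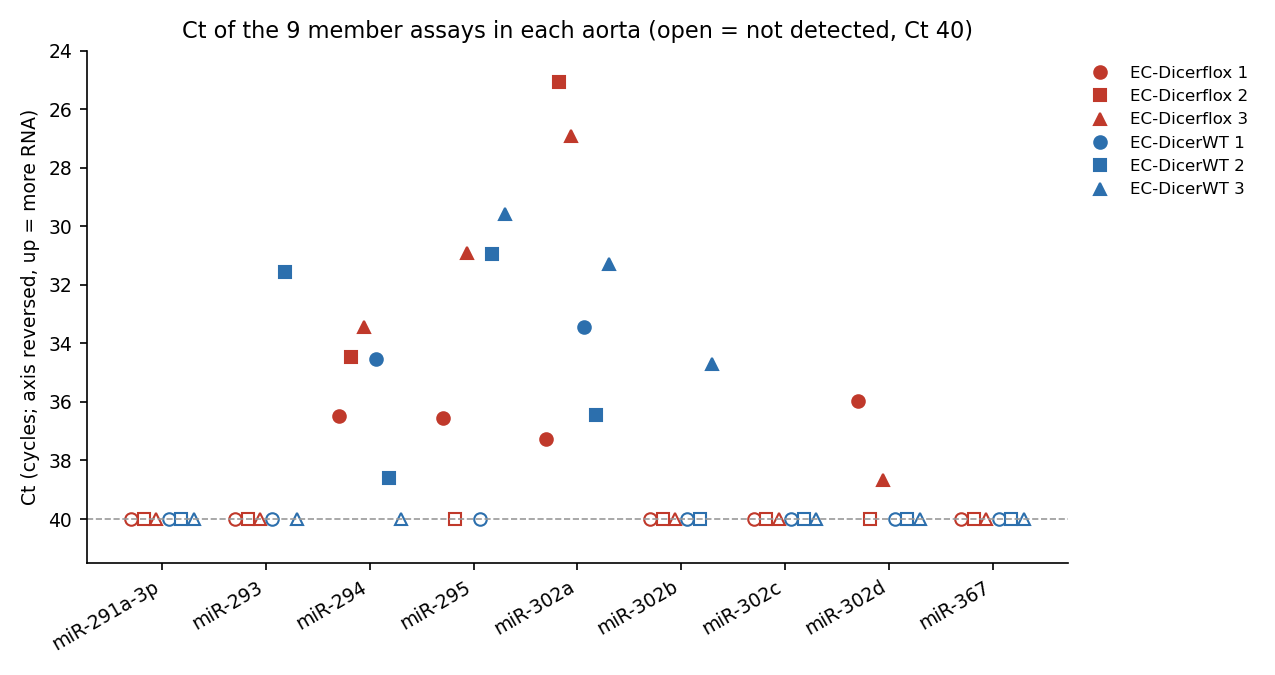
Ct in cycles (reversed axis, so that more RNA is higher) of the 9 members in each of the 6 aortas, EC-Dicerflox in red and EC-DicerWT in blue, with the replicates as circles, squares and triangles and open symbols at 40 for wells without detection. The values of miR-302a run from 25.1 to 37.3, and miR-291a-3p, miR-302c and miR-367 have open symbols only.

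Counted by sample, 4, 2 and 4 members were detected in EC-Dicerflox replicates 1 to 3 and 2, 4 and 3 in EC-DicerWT replicates 1 to 3. The same number did not stand for the same miRNAs. EC-Dicerflox replicate 1 and EC-DicerWT replicate 2 both had miR-294, miR-295 and miR-302a, and the fourth was miR-302d in the former and miR-293 in the latter. The detected member wells had a median Ct of 34.5, against 27.4 over all detected miRNA wells. A Ct over 35 was found in 36.8% of them, and over all detected miRNA wells in 6.86%.

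Whether endothelial loss of Dicer went with a different level was tested for the members with a Ct under 40 in at least 3 of the 6 aortas. This held for 3 of the 9, miR-294, miR-295 and miR-302a, and the other 6 had no test. Levels were the Ct of 5 control small RNAs, averaged in each sample, minus the Ct of the miRNA, and 1 unit is 1 on the log2 scale if each cycle doubles the product. That control Ct ranged from 19.4 to 20.4 and differed by 0.16 cycles between the groups (P = 0.7, exact two-sided permutation test, n = 3 per group). None of the 3 members had an unadjusted limma P under 0.05 or groups that did not overlap. Of all 439 tested assays, 4.78% had such a P (3.87% lower and 0.911% higher in EC-Dicerflox, or 17 and 4 assays), 9.79% had groups that did not overlap, and 0% had an adjusted limma P under 0.05. The split by direction varied with how the third replicates were treated. It was 9 assays lower and 10 higher when replicates 1 and 2 were fitted alone, but 21 and 7 with a batch term for the third replicates. Fewer cells that make a miRNA and less miRNA per cell cannot be told apart in RNA of the whole aorta.

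In EC-Dicerflox aortas the level of miR-302a was -9.85 ± 6.93 (SD, n = 3), and in EC-DicerWT aortas it was -14.0 ± 2.94 (SD, n = 3). The log2 difference of 4.15 ± 3.79 (SE) had a 95% interval from -5.46 to 13.8 and an adjusted limma P of 0.99 (unadjusted 0.32). Without EC-Dicerflox replicate 1 it was 8.13 (limma P 0.012 before adjustment, 0.997 after). It was 1.82 without EC-Dicerflox replicate 2, 2.50 without EC-Dicerflox replicate 3 and 2.65 when EC-DicerWT replicate 2 was left out, so the estimate hung on single mice.

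MiR-294 had a level of -14.9 ± 2.00 (SD, n = 3) in EC-Dicerflox aortas. Its level in EC-DicerWT aortas was -18.0 ± 2.63 (SD, n = 3), an upper bound because the undetected well was kept at 40. The log2 difference was 3.09 ± 1.67 (SE), with a 95% interval from -1.14 to 7.33 and a limma P of 0.12 before and 0.99 after adjustment. Without EC-DicerWT replicate 1 the difference was 4.60 (unadjusted limma P of 0.022, adjusted 0.97), with replicates 1 and 2 alone it was 1.26, and with a limit of Ct 35 it was 0.71.

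For miR-295 the level was -15.9 ± 4.90 (SD, n = 3) in EC-Dicerflox aortas. In EC-DicerWT aortas it was -13.8 ± 5.86 (SD, n = 3), and 1 well per group was kept at 40. The log2 difference of -2.15 ± 3.85 (SE) had a 95% interval from -11.9 to 7.58 and a limma P of 0.60 before and 0.99 after adjustment. It turned to 0.04 when EC-DicerWT replicate 3 was left out, and was -0.06 without EC-Dicerflox replicate 2. Leaving out EC-DicerWT replicate 2 gave -1.02. It reached -4.85 when EC-Dicerflox replicate 3 was left out and -5.48 when EC-DicerWT replicate 1 was. The exact two-sided permutation P values were 0.4 for miR-302a, 0.2 for miR-294 and 0.8 for miR-295 (n = 3 per group), and the smallest that this design allows is 0.1.

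The spread between aortas was the main feature of the detected members. Each assay gave 1 Ct per aorta, so differences between mice and variation of the measurement itself cannot be told apart in it. The within-group SD, pooled over the groups, was 5.40 log2 units for miR-295, 5.32 for miR-302a and 2.34 for miR-294. By width these ranked 9, 10 and 59 among the 439 tested assays, whose median was 0.53. The spread was wider among late signals, with a median of 0.29 in assays with a mean Ct under 25 and of 1.69 in the 128 with a mean Ct over 30. All 3 tested members, with mean Ct values of 31.7 for miR-302a, 34.7 for miR-295 and 36.3 for miR-294, lay above that figure too.

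**Figure D3:**
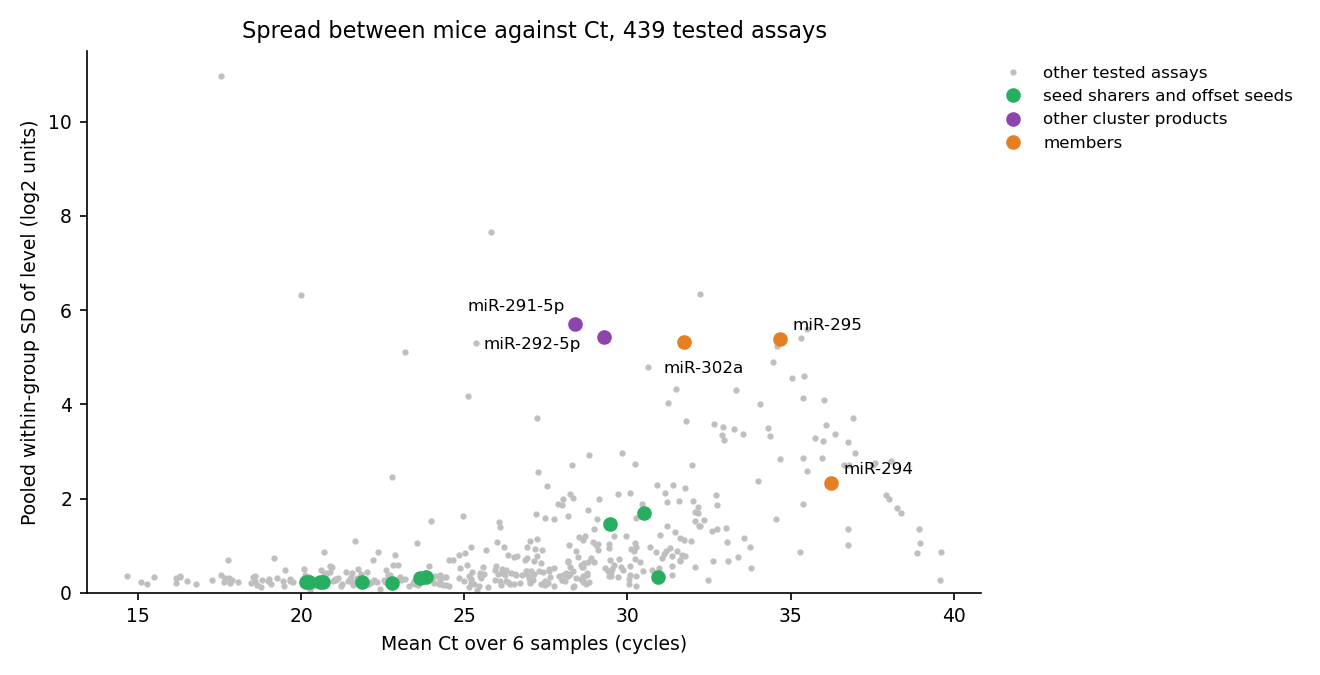
Pooled within-group SD of the level (log2 units) against the mean Ct over the 6 aortas (cycles) for the 439 tested assays, with members in orange, other products of the same clusters in purple and miRNAs with a shared or offset seed in green. MiR-295 (5.40) and miR-302a (5.32) lie far above the median of 0.53.

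The other strands and hairpins of both clusters give a second view of the same transcripts. By name the cards held 14 further assays of these hairpins, and 2 more, miR-291-3p and miR-291-5p on card B, that carry an older name without a letter and were added after their values were seen. Of these 16, 11 were detected in no aorta, among them miR-290-3p, miR-290-5p, miR-291b-3p, miR-291b-5p, miR-302b* and miR-302c*. Of the 6 strands with an asterisk 1 had any signal, miR-295* in EC-Dicerflox replicate 3 at 39.5, in an aorta where miR-295 itself had a Ct of 30.9. The assays for miR-292-3p disagreed between the cards. On card A the Ct was 34.5 in EC-Dicerflox replicate 3 and 32.9 in EC-DicerWT replicate 2, and on card B it was 40 in all 6 aortas. EC-DicerWT replicate 2 was also the aorta with miR-293. MiR-291-3p on card B, whose older name does not tell miR-291a from miR-291b, had a Ct of 35.7 and 35.5 in EC-Dicerflox replicates 1 and 2. Over the whole arrays 13 miRNA names were on both cards, 6 of them with different detection calls in 1 or more samples. Disagreement between the cards was therefore not limited to the embryonic miRNAs, but it differed in size. In 3 of the 6, miR-330, miR-370 and miR-449b, all 6 aortas had a signal on 1 card and none on the other. Whether assays with the same name were the same assay was not tested.

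The products detected in all 6 aortas were miR-291-5p and miR-292-5p, both from the 5′ arm of miR-290 cluster hairpins. The sequence of the latter is shown because its seed differs from every member seed.
miR-292-5p: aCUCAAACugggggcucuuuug
The Ct of miR-292-5p was 22.5, 27.8 and 34.5 in EC-Dicerflox replicates 1 to 3 and 36.3, 26.7 and 28.0 in EC-DicerWT replicates 1 to 3. The last of these was deposited as a whole number, which occurs in 10 of the 2625 detected miRNA wells, with no account of how it arose. The Ct of miR-291-5p was 23.2, 27.9 and 34.5 in EC-Dicerflox replicates 1 to 3 and 34.6, 22.2 and 27.9 in EC-DicerWT replicates 1 to 3. Within a mouse both were 0.73 cycles apart or less in the EC-Dicerflox aortas and in EC-DicerWT replicate 3, and 1.70 and 4.45 cycles apart in EC-DicerWT replicates 1 and 2. Their order over the mice was not that of miR-302a, whose latest signals fell in EC-Dicerflox replicate 1 and EC-DicerWT replicate 2, the aortas with the earliest signals of both. Between the groups the log2 difference was 2.23 ± 3.87 (SE) for miR-292-5p and -0.13 ± 4.07 (SE) for miR-291-5p, with adjusted limma P values of 0.99, and their pooled SD values of 5.43 and 5.71 were of the size found in miR-302a and miR-295. The members, which come from 3′ arms of this cluster, are set beside the 5′ arms for 3 aortas. In EC-Dicerflox replicate 1, where miR-292-5p had a Ct of 22.5, miR-294 was at 36.5, miR-295 at 36.6 and miR-293 at 40. In EC-DicerWT replicate 2, where miR-291-5p had a Ct of 22.2, miR-295 was at 31.0, miR-293 at 31.6 and miR-294 at 38.6. In EC-Dicerflox replicate 3, where both 5′ arms had a Ct of 34.5, miR-295 was at 30.9 and miR-294 at 33.4.

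**Figure D4:**
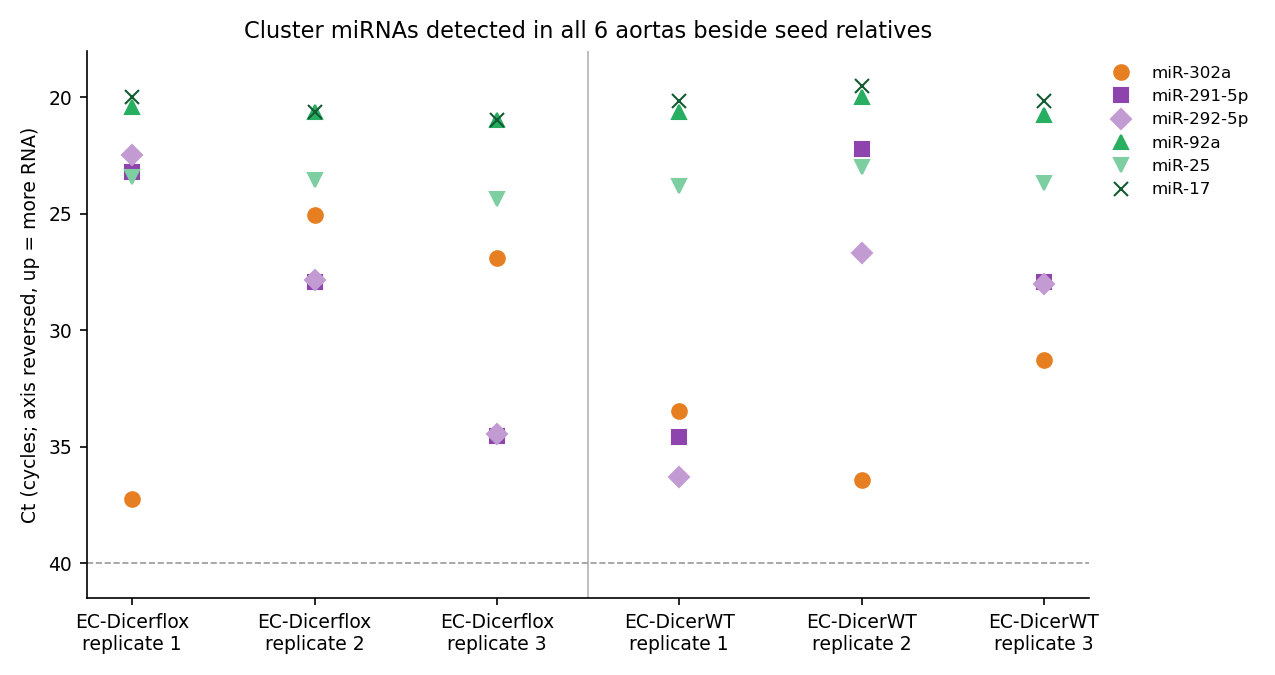
Ct in cycles (reversed axis) of miR-302a, miR-291-5p and miR-292-5p beside miR-92a, miR-25 and miR-17 in each of the 6 aortas, 1 point per aorta. The 3 cluster products move over 12.2 to 13.8 cycles between aortas, while miR-92a stays within 0.98 cycles.

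Of the seeds of the embryonic miRNAs, that of miR-367 was not foreign to the aorta, since other miRNAs carry it. MiR-367 shares AUUGCAC with 4 other miRNAs on the cards, miR-25, miR-32, miR-92a and miR-363, of which 2 are shown with the seed in capitals.
miR-92a: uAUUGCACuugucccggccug
miR-25: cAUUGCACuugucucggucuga
All 4 were detected in all 6 aortas. MiR-92a, a product of the miR-17-92 cluster, had a Ct between 20.0 and 21.0, and miR-25, from the miR-106b-25 cluster, between 23.0 and 24.3. MiR-363 and miR-32 came later, with mean Ct values of 30.5 and 31.0. Since miR-367 was at 40 throughout, miR-92a crossed the level at least 19.0 cycles earlier in every aorta and miR-25 at least 15.7 cycles earlier. These are differences between assays whose efficiencies were not measured, so they are not given as folds. Among the assays matched to a RefSeq sequence, no other had the 7-base seed AAGUGCU of miR-291a-3p, miR-294, miR-295, miR-302b and miR-302d. The same held for the seeds of miR-293 and miR-302c.

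The bases AAGUGC, the first 6 of that seed, sit a base or more further in at the 5′ end of 7 other miRNAs, which is here called an offset seed (AAGUGC within the first 9 bases). The following have the lowest Ct values, and capitals mark their own bases 2 to 8.
miR-106a: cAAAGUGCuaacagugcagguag
miR-17: cAAAGUGCuuacagugcagguag
miR-20a: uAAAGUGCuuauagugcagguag
miR-106b: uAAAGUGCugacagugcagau
These growth-promoting miRNAs, with miR-20b and miR-93, had mean Ct values from 20.2 to 23.8 and ranged over 1.21 to 1.75 cycles between aortas. MiR-105 was the seventh, with a mean Ct of 29.5. Neither the 4 seed sharers nor the 7 with an offset seed had an unadjusted limma P under 0.05 between the groups, against 4.78% of all tested assays. Their log2 differences ran from -0.66 to -0.07, with a median of -0.30 beside -0.10 over all tested assays. Pooled SD values in these lists ran from 0.21 to 1.70 log2 units, below each of the 3 tested members.

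The pattern of each tested member over the 6 aortas was compared with that of the assays detected in all aortas, by the root mean square difference of levels after each assay's own mean was taken off. Closest to miR-302a were miR-669l (3.82), miR-96 (4.03) and miR-449b on card B (4.13), against 4.82 for miR-302a about its own mean, so that no assay followed it closely. Closest to miR-295 were miR-211 (1.97), miR-546 (2.62) and miR-463* (2.75), against 4.54 for miR-295 about its own mean. Closest to miR-294 were miR-1966 (1.49), miR-665 (1.71) and miR-21* (1.80), against 2.46 about its own mean. The undetected members, miR-291a-3p, miR-302c and miR-367, were among the 106 assays that were detected in none of the 6 aortas and so had the same pattern.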

How the data were processed

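Total RNA of 6 aortas was converted to cDNA by the authors, preamplified and run on TaqMan array cards A and B. The deposited values are raw Ct values per assay, 1 column per mouse, with no reference RNA subtracted and 40 as the detection limit. How baseline and level were set is not given in the sources used here. Groups and replicate numbers came from the sample labels. Of 608 rows, 596 were mouse miRNA assays. The deposited values name no card, so card A (335) and card B (261) were inferred from the length of the assay number.

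The reference was the mean Ct of U6, snoRNA135, snoRNA202, U87 and Y1, cards averaged first. Assays with a Ct under 40 in at least 3 of 6 samples (439) were fitted with limma 3.58.1 in R 4.3.3 (lmFit and eBayes, two-sided, no replicate block), undetected wells kept at 40, and P values were adjusted by Benjamini-Hochberg over all 439. The fit was tested on simulated levels. The members, lists and tests were chosen with earlier results of these data known. The named miRNAs were the 9 members, other products of both clusters, miRNAs with a shared or offset seed (the 4 lowest in mean Ct of each list), and the 3 assays closest in pattern to each tested member. Sequences are from RefSeq (GRCm38.p6), with main strands named by arm by hand. Alternatives were other references, detection filters and limits, missing wells, variance models, a replicate block, a batch term for the third replicates, and leaving out mice. Ct values carry no read depth, and precision is limited by having 3 mice per group.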

Additional observations from a re-analysis of the deposited data

Results flagged for a closer look

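The plant miRNA assay, a negative control that enters no comparison, had a Ct of 39.776 on card A in EC-Dicerflox replicate 1 and of 40 in its other 11 wells. It is a signal in data outside the comparisons. Among the 9 members the latest Ct was 38.7, for miR-302d in EC-Dicerflox replicate 3, and the part of late amplification in such wells was not tested.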

How the results depend on the processing

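No alternative gave a member an adjusted limma P under 0.05. The differences of miR-302a (19 fits, from 1.82 to 8.13) and miR-294 (18 fits, from 0.71 to 4.60) kept their sign, and that of miR-295 (17 fits, from -5.48 to 0.04) turned to 0.0358 without EC-DicerWT replicate 3. With undetected wells left missing, miR-295 was at -3.38 and miR-294 at 2.17. Leaving out 1 mouse gave 0 or 1 members with an unadjusted P under 0.05, namely miR-302a without EC-Dicerflox replicate 1 and miR-294 without EC-DicerWT replicate 1, and the other settings gave 0. U6 alone moved the median difference of all assays from -0.10 to -0.48. The detected share of member wells was 22.2% with a limit of Ct 35, and 33.3% to 37.8% without 1 mouse. Over all assays, 21 had an unadjusted P under 0.05, 11 with U6 alone as reference (0 of them higher in EC-Dicerflox, against 4 of 21), and from 8 to 22 without 1 mouse. Without EC-Dicerflox replicate 3 the split was 13 lower and 9 higher in EC-Dicerflox, and with replicates 1 and 2 alone 9 lower and 10 higher, against 17 and 4. It was 8 and 3 without EC-DicerWT replicate 3, and 21 and 7 with a batch term for the third replicates. The lowest counts without 1 mouse were 8 without EC-Dicerflox replicate 2, 11 without EC-DicerWT replicate 3 and 13 without EC-DicerWT replicate 1. Adjusted calls numbered 0 in the main setting and 1 with a batch term for the third replicates or with replicates 1 and 2 alone, in both cases miR-1906, which is no member, and from 0 to 0 without 1 mouse. The cause was not tested. In the fit with a replicate block, 17 assays and 0 members had an unadjusted P under 0.05, and it changed no call of a member. After the group mean of each assay was taken off, samples with the same number had correlations across assays of 0.15, -0.06 and 0.31. The mice were not treated as pairs. Of the detected member wells 84.2% had a Ct over 30.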
